A study of Homo sapiens with 9 samples.

Results

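The genes described here are those of HLA class I antigen presentation: HLA-B, HLA-C, HLA-E and HLA-F, which encode class I heavy chains, B2M, TAP1, TAP2, TAPBP and NLRC5. They were chosen by name, from what they are known to do, and make up 9 of the 57773 genes in the table. TAP2 has 2 rows under different Ensembl identifiers, so there are 10 rows. The libraries came from OVCAR-8, an established human ovarian cancer cell line, 48 h after transfection of siRNA, and all were grown in RPMI-1640 medium with fetal bovine serum. The 9 libraries form 3 groups of 3: CDK12-2 siRNA and CDK12-6 siRNA, a pair of independent siRNAs against the kinase CDK12, and luciferase siRNA as the control. Each group has a library numbered AK39, AK41 and AK49, and the labels call the 3 libraries of a group technical replicates of a single cell line. The p-values below therefore measure the spread between libraries and say nothing of separate cultures.

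HLA class I molecules show peptides from inside the cell to CD8+ T cells at the cell surface. Proteasomes cut the peptides, the TAP1-TAP2 transporter carries them into the endoplasmic reticulum, and tapasin (TAPBP) holds the empty class I molecule at the transporter while a peptide is loaded. Classical heavy chains mostly reach the surface in complex with beta-2 microglobulin, the light chain encoded by B2M. NLRC5 is the transactivator of the class I promoters, and interferons raise most of these genes through interferon regulatory factors (IRFs) and NF-kappaB. Loss of B2M or of the transporter is a known way for tumours to escape T cells.

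The promoters are shown for the genes that rose below, TAP1 and B2M, and, for contrast, for TAPBP, TAP2 and HLA-B, which did not pass the test. Each is the 250 bases before the gene's start, 5′ to 3′ on the gene's strand, from RefSeq. Capitals mark every match to the core of an IRF site, AANNGAAA or its complement TTTCNNTT.
TAP1, chr6:32853705-32853954 (GRCh38.p14, minus strand): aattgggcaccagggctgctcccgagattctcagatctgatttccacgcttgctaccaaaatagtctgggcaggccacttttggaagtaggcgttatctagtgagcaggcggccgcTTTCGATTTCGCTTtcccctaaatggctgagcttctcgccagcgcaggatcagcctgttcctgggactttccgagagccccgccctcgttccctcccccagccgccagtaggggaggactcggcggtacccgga
B2M, chr15:44711267-44711516 (GRCh38.p14, plus strand): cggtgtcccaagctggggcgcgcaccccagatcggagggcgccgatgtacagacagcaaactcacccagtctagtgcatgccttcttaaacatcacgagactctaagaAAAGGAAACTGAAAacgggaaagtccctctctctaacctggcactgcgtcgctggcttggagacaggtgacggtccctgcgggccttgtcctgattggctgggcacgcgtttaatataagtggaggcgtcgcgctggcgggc
TAPBP, chr6:33314079-33314328 (GRCh38.p14, minus strand): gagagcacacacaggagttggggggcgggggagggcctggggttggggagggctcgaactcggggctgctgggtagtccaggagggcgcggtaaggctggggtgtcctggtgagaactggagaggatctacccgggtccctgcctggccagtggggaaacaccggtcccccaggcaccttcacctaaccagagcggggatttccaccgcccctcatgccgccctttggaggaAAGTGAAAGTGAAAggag
TAP2, chr6:32838740-32838989 (GRCh38.p14, minus strand): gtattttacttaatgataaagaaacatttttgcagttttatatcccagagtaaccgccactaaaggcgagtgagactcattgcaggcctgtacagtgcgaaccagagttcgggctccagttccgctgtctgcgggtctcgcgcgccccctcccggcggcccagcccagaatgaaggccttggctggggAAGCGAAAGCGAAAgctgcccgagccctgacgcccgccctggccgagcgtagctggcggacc
HLA-B, chr6:31357180-31357429 (GRCh38.p14, minus strand): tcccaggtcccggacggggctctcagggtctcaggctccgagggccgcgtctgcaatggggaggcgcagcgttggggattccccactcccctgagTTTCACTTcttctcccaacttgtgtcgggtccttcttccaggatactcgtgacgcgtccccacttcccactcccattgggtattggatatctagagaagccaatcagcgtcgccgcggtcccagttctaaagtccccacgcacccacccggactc
The table of promoters held 7 of the 9 genes, and at least 1 match to the IRF core lay in the promoter of each of these 7. Over all 35093 promoters of the same length, 20.3% held the core on either strand. TAP1, B2M, TAPBP and TAP2 each had 2 overlapping matches, in a run that began 134 bases before the start of TAP1, 142 before B2M, 18 before TAPBP and 62 before TAP2. A kappaB-type motif, searched on both strands, was in the promoters of TAP1, B2M, TAPBP and HLA-B and in 5.06% of all promoters. The letters CCAAT or ATTGG were in those of TAP1, B2M, HLA-B, HLA-C and HLA-F and in 32.0% of all promoters. In the promoters printed, no match of one motif overlapped a match of another. The TAP2 promoter thus held the same IRF core as those of TAP1 and B2M and neither other motif. A match of letters is a description of the sequence only. TAP1 also has a later start in that table, and no match to the IRF core lay in the 250 bases before it.

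CDK12 itself, the check of the knockdown, was at 2.06 to 2.75 RPKM in the 6 CDK12 siRNA libraries and at 7.09 to 8.40 RPKM in the 3 luciferase libraries. RPKM counts the reads on a gene for each kilobase of its length and each 1000000 reads of the library. The 9 libraries held 104963048 to 131472019 reads in listed genes. Of the ovarian carcinoma markers, KRT7, KRT8, KRT18, PAX8 and EPCAM were at 1 RPKM or more in all 9 libraries, WT1 was near 1 RPKM, and MUC16 and KRT19 were near 0. Leukocyte markers other than CD68 summed to 0.430 to 0.697 RPKM in the CDK12 siRNA libraries, against 1.95 RPKM in luciferase AK39, 0.530 in luciferase AK41 and 0.527 in luciferase AK49. The sum of luciferase AK39 was mostly LYZ at 1.196 RPKM, PTPRC was at 0.0710 RPKM there, and CD3E was at 0 in all 9 libraries. CD68, which tumour cells also express, was at 3.76 to 5.33 RPKM with CDK12 siRNA and 13.8 to 16.5 RPKM with luciferase siRNA. Fibroblast markers, mostly COL1A1, summed to 16.5 to 37.6 RPKM with CDK12 siRNA and 13.3 to 23.5 RPKM with luciferase siRNA, and DCN was at 0 in all 9 libraries. The endothelial markers CDH5 and VWF summed to at most 0.136 RPKM. The part of these other-cell markers in the results was not tested. In bulk RNA, fewer cells that express a gene and less RNA of it per cell cannot be told apart.

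In hg19, as the table gives it, the heavy chain genes lie on chromosome 6, with HLA-F at 29690552 to 29706305, HLA-E at 30457244 to 30461982, HLA-C at 31236526 to 31239907 and HLA-B at 31321649 to 31324965. TAP2 (32781544 to 32806599 for its longer row), TAP1 and TAPBP (33267471 to 33282164) follow on the same chromosome. B2M lies on chromosome 15 at 45003675 to 45011075 and NLRC5 on chromosome 16 at 57023397 to 57117443. HLA-F shares 11928 bases with the antisense gene HLA-F-AS1, 991 with HCG4P11, which at 2.48 to 3.13 RPKM was listed above HLA-F itself, and 471 with RPL23AP1, and HLA-B shares 542 bases with a non-coding gene, so some of their reads cannot be assigned.

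The comparison asked whether class I genes changed when CDK12 was depleted. TAP1 and B2M rose with CDK12 siRNA, by 1.56-fold and 1.496-fold in mean RPKM, while the heavy chains HLA-B, HLA-C, HLA-E and HLA-F and both rows of TAP2 did not pass the test in either direction. TAPBP, at 1.40-fold, did not pass either. NLRC5 was under 1 RPKM in every library and was not in the fit across genes. Of the 9 rows tested for the mean of both siRNAs, 2 rose and 0 fell (limma, Benjamini-Hochberg adjusted p under 0.05), beside 33% of all 15208 tested genes called, 13.3% higher and 19.7% lower. Over all genes these were 2027 higher and 2997 lower, and the balance depends on the scaling: quantile normalization gave 3255 higher and 3341 lower, scaling to the reads in listed genes 3388 and 3159, and a trimmed mean of log ratios 3225 and 3401. TAP1 and B2M were called higher under all 3 of these.

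**Figure D1:**
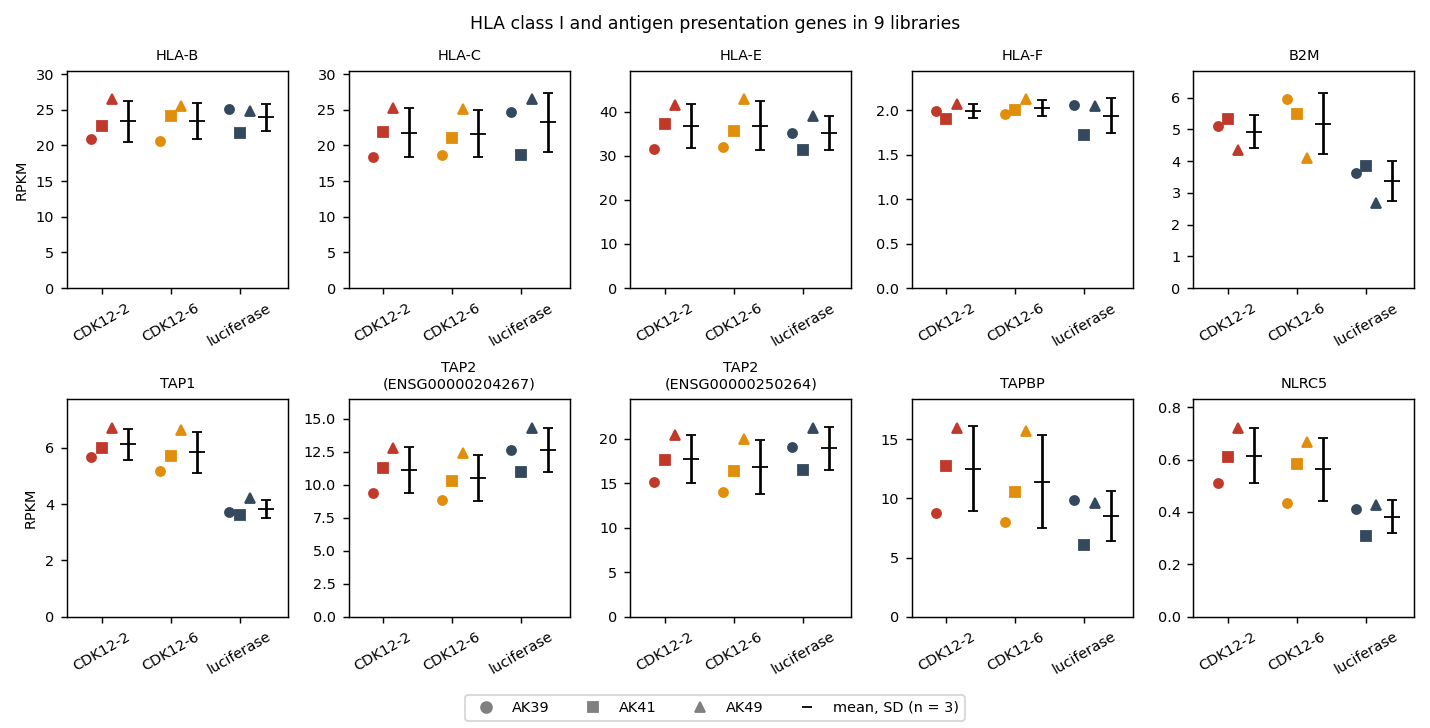
RPKM (vertical axes, from 0) of each of the 10 rows in every library, with CDK12-2, CDK12-6 and luciferase siRNA from left to right; symbols mark the AK number, and bars are the mean and SD of 3 libraries. The CDK12 siRNA points lie above every luciferase point for B2M, TAP1 and NLRC5, and the groups overlap in the other panels.

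Among the heavy chains, HLA-E, which presents signal peptides of other class I molecules to NK cell receptors, had the highest level. It had 31.5, 37.1 and 41.5 RPKM in CDK12-2 AK39, AK41 and AK49, 32.0, 35.7 and 42.8 RPKM in the CDK12-6 libraries in the same order, and 35.2, 31.2 and 38.9 RPKM in the luciferase libraries. The groups overlapped, and the spread within a group was far wider than the difference between groups. The log2 fold change of HLA-E was 0.06 ± 0.119 (SE; limma, adjusted p = 0.736), on the scale log2(RPKM + 1), as are all log2 changes here.

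HLA-B, a classical heavy chain that presents peptides to CD8+ T cells, had 20.8, 22.8 and 26.5 RPKM in the CDK12-2 libraries, 20.6, 24.1 and 25.5 RPKM in the CDK12-6 libraries and 25.1, 21.8 and 24.9 RPKM in the luciferase libraries, again with AK39 first, then AK41 and AK49. HLA-C, a classical heavy chain read mainly by NK cell receptors, averaged 21.7 ± 2.99 RPKM with CDK12 siRNA (SD, n = 6) and 23.2 ± 4.14 RPKM with luciferase siRNA (n = 3). Both genes overlapped between groups, and neither passed (HLA-B log2 change -0.03 ± 0.0997, adjusted p = 0.824; HLA-C -0.09 ± 0.14, adjusted p = 0.671). HLA-F, a non-classical heavy chain expressed at low level, averaged 2.01 ± 0.0790 RPKM with CDK12 siRNA and 1.94 ± 0.191 RPKM with luciferase siRNA (adjusted p = 0.723). The 95% intervals of the log2 change were -0.206 to 0.327 for HLA-E and -0.112 to 0.182 for HLA-F, so changes of that size cannot be told from none with these libraries. Class I heavy chain genes resemble each other in sequence and differ between alleles, and how reads that fit several of them were counted is not stated by the labels or headers, so their levels are uncertain. Under the other settings the estimates of HLA-B, HLA-C, HLA-E and HLA-F each took both signs without passing the test.

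B2M, the light chain shared by all class I molecules, had 5.12, 5.31 and 4.34 RPKM in CDK12-2 AK39, AK41 and AK49, 5.95, 5.47 and 4.10 RPKM in the CDK12-6 libraries, and 3.61, 3.84 and 2.67 RPKM in the luciferase libraries. Every CDK12 siRNA library lay above every luciferase library, and AK49 was the lowest library in each of the 3 groups. The gap was narrow, with the lowest CDK12 siRNA value at 4.10 RPKM and the highest luciferase value at 3.84 RPKM. The log2 fold change was 0.47 ± 0.124 over both siRNAs (adjusted p = 0.0172), from 1751 to 3040 reads per library with CDK12 siRNA and 1127 to 2101 with luciferase siRNA. This call was lost without luciferase AK49, where the change was 0.35 (adjusted p = 0.0882), and when either AK39 or AK41 was dropped from every group, at 0.45 and 0.50 (adjusted p = 0.099 and 0.108). Without luciferase AK39, the library with the highest leukocyte sum, it was 0.51 (adjusted p = 0.0443).

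TAP1, a subunit of the peptide transporter, had 5.67, 5.98 and 6.72 RPKM in the CDK12-2 libraries, 5.19, 5.72 and 6.63 RPKM in the CDK12-6 libraries, and 3.71, 3.61 and 4.20 RPKM in the luciferase libraries. The lowest CDK12 siRNA library was well above the highest luciferase library. The log2 fold change was 0.53 ± 0.0891 (adjusted p = 0.00179), from 3682 to 4467 reads with CDK12 siRNA and 2298 to 2973 with luciferase siRNA. It was lost in 1 of 22 alternative settings, with AK41 left out of all groups (0.50, adjusted p = 0.0642), and was 0.51 without luciferase AK39 (adjusted p = 0.0137). In the table, the span of TAP1 on chromosome 6, 32812986 to 32821755 in hg19, lies inside that of PSMB9, 32811913 to 32827362, and shares 1287 bases with the antisense transcript TAPSAR1. The library kit does not mark strand, so reads of overlapping exons cannot be told apart. PSMB9 was at 0.234 to 0.926 RPKM and, like TAP1, higher with CDK12 siRNA, by 0.541 in mean log2(RPKM + 1). TAPSAR1 was at 2.11 to 3.88 RPKM over the 9 libraries, near the level of TAP1 with luciferase siRNA, and is not given by group here. The part of PSMB9 and TAPSAR1 reads in the TAP1 values was not tested.

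TAP2, the other subunit of the transporter, did not pass in either row. The row ENSG00000204267 had 9.35, 11.3 and 12.8 RPKM in the CDK12-2 libraries, 8.88, 10.3 and 12.4 RPKM in the CDK12-6 libraries and 12.6, 10.99 and 14.3 RPKM in the luciferase libraries. The groups overlapped, and its log2 change was -0.21 ± 0.127 (adjusted p = 0.232). The row ENSG00000250264 averaged 17.3 ± 2.60 RPKM with CDK12 siRNA and 18.9 ± 2.39 RPKM with luciferase siRNA, a change of -0.13 ± 0.131 (adjusted p = 0.48). The spans of both rows share 16948 bases, and that of ENSG00000250264 also shares 3282 bases with HLA-DOB, at most 0.173 RPKM. How reads in shared bases were counted is not stated, so neither level can be taken as that of the whole gene. Both estimates were below 0 in all 22 alternative settings and passed in none.

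TAPBP, which encodes tapasin, had 8.81, 12.7 and 15.98 RPKM in the CDK12-2 libraries, 8.02, 10.5 and 15.7 RPKM in the CDK12-6 libraries and 9.88, 6.10 and 9.64 RPKM in the luciferase libraries. The AK41 and AK49 libraries of both CDK12 siRNAs were above every luciferase library, and both AK39 libraries were below luciferase AK39. The means were 11.96 ± 3.41 RPKM with CDK12 siRNA and 8.54 ± 2.11 RPKM with luciferase siRNA, and the log2 change of 0.43 ± 0.23 did not pass (adjusted p = 0.189, 95% interval -0.089 to 0.941). It passed in 1 of 22 alternative settings, quantile normalization (0.50, adjusted p = 0.0499). With AK39 left out of all groups the estimate was 0.74 (adjusted p = 0.0654). Without luciferase AK41 it was 0.227 (adjusted p = 0.515), and with AK41 left out of all groups 0.227 (adjusted p = 0.654).

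NLRC5, the class I transactivator, had 0.511, 0.609 and 0.722 RPKM in the CDK12-2 libraries, 0.434, 0.583 and 0.668 RPKM in the CDK12-6 libraries and 0.412, 0.309 and 0.427 RPKM in the luciferase libraries. The groups did not overlap, by a margin of 0.434 RPKM in CDK12-6 AK39 to 0.427 RPKM in luciferase AK49. Since the transcript is long, these low levels rest on 871 to 1253 reads with CDK12 siRNA and 663 to 707 with luciferase siRNA. The difference in mean log2(RPKM + 1) was 0.20 (two-sided exact permutation test of 6 against 3 libraries, p = 0.0238, the smallest this design allows). Without the filter on low values the limma fit gave the same difference with an adjusted p = 0.112 over all genes. In mean RPKM NLRC5 was 1.54-fold higher with CDK12 siRNA, and the added 1 RPKM makes the log2 difference of so low a gene smaller. Of the tested genes, 34.2% had no overlap between the 6 CDK12 siRNA and the 3 luciferase libraries, 14.3% higher, as B2M and TAP1 were, and 19.9% lower.

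The authors' deposited table holds their own comparison of CDK12 siRNA with luciferase siRNA, and its header does not say which libraries entered. In the authors' deposited table TAP1 had a log2 fold change of 0.6263 with a false discovery rate of 1.053e-05. For B2M the authors' deposited table gives 0.5746 and 0.01536. NLRC5 and TAPBP, which did not pass or were not tested in the limma fit, are at a log2 fold change of 0.6095 (0.0003796) and 0.4713 (0.04164) in the authors' deposited table. For HLA-B, HLA-E and HLA-F it gives a false discovery rate of 1, for HLA-C 0.866, and for the TAP2 rows 0.1556 and 0.596.

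The single siRNAs were compared with the same luciferase libraries, so their results are not independent. TAP1 rose by 0.56 ± 0.103 with CDK12-2 (adjusted p = 0.00399) and by 0.50 ± 0.103 with CDK12-6 (adjusted p = 0.00698). B2M rose by 0.44 ± 0.144 with CDK12-2 (adjusted p = 0.0483) and by 0.49 ± 0.144 with CDK12-6 (adjusted p = 0.0311). These 2 rows were the members called for each siRNA, beside 25.2% of all tested genes for CDK12-2 (9.76% higher and 15.4% lower) and 26% for CDK12-6 (10.4% higher and 15.6% lower). The single-siRNA calls of B2M held in only 10 of 23 alternative settings for CDK12-2 and in 12 of 23 for CDK12-6. TAP1 was called in 22 of 23 for each.

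Between CDK12-2 and CDK12-6, 0 of the 9 tested rows passed, beside 0% of all genes (limma). At an unadjusted p under 0.05 there were 0.664% of the tested genes and 0 of the 9 rows, and the other settings, precision weights included, called 0 to 2 genes. The widest interval was that of TAPBP, at a log2 difference of 0.13 with a 95% interval of -0.462 to 0.729, and that of TAP1 was -0.171 to 0.291. Same-numbered CDK12-2 and CDK12-6 libraries deviated together for AK39 and AK49 (r = 0.764 and 0.809) but hardly for AK41 (0.13). A fit of the 6 CDK12 siRNA libraries with the AK number as a block was therefore added after the data were seen. Differently numbered libraries, such as CDK12-6 AK39 and luciferase AK41 (r = 0.798), also deviated together, so the pairing behind this fit is not established. The blocked fit called 1 of all genes and 0 of the 9 rows. Its intervals were narrower, such as 0.00878 to 0.258 for TAPBP (unadjusted p = 0.0383, adjusted p = 0.6) and -0.0487 to 0.169 for TAP1. In this fit 1241 of the 15208 tested genes were at an unadjusted p under 0.05, so that of TAPBP does not set it apart. Within AK numbers, TAPBP, TAP1, NLRC5 and both TAP2 rows were higher with CDK12-2 in 3 of 3 pairs, HLA-B and HLA-C in 2 of 3, and B2M, HLA-E and HLA-F in 1 of 3.

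**Figure D2:**
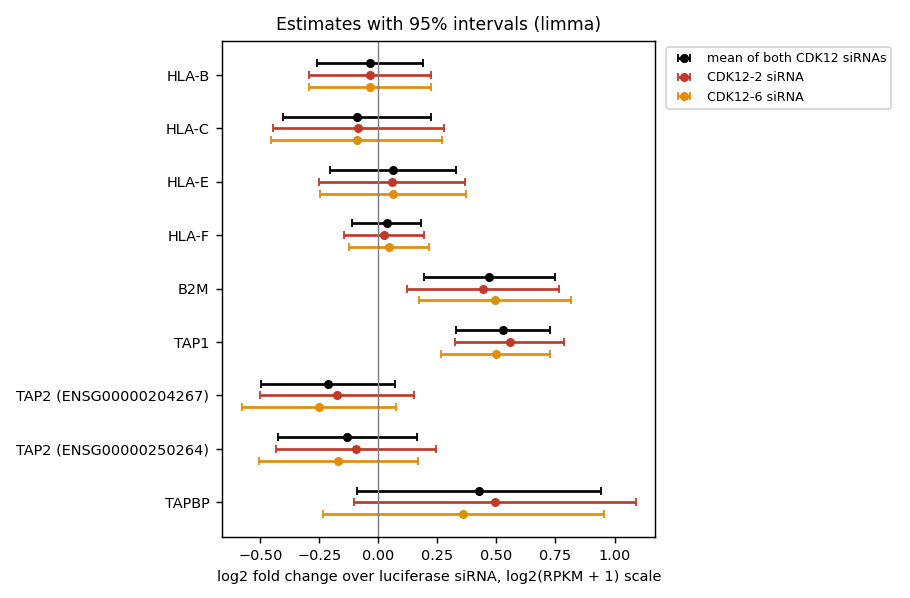
Log2 fold changes of the 9 tested rows over luciferase siRNA on the log2(RPKM + 1) scale (horizontal axis), with 95% intervals from limma, for the mean of both CDK12 siRNAs and for each. The intervals of TAP1 and B2M lie above 0 in all 3 comparisons and those of the other rows cross 0.

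Setting each CDK12 siRNA library beside the luciferase library of the same AK number gave 6 ratios per row. B2M, TAP1 and NLRC5 were higher in 6 of 6, at 1.38 to 1.65 times for B2M, 1.40 to 1.65 times for TAP1 and 1.05 to 1.97 times for NLRC5. The groups of these rows did not overlap, so 6 of 6 was fixed in advance and adds no support. The ratios share luciferase libraries, and the AK numbers were not taken as pairs with luciferase. TAPBP was higher in 4 of 6, at 1.63 to 2.09 times in AK41 and AK49 and 0.812 to 0.891 times in AK39. HLA-B, HLA-E and HLA-F were also higher in 4 of 6, HLA-C in 2 of 6 and each TAP2 row in 1 of 6. In AK39 every row other than B2M, TAP1 and NLRC5 was below luciferase AK39. Listed genes held 68.2% of all reads in CDK12-2 AK39, 70.5% in CDK12-6 AK39 and 82.7% in luciferase AK39. RPKM is scaled to all reads of a library, and the part of this difference in the ratios was not tested. The labels do not say what the AK numbers mark.

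Most of these rows were high in the same libraries. AK49 was the highest library in all 3 groups for HLA-C, HLA-E, TAP1, NLRC5 and both TAP2 rows, whereas B2M was lowest there. Non-polyadenylated RNAs, which a poly(A) kit should leave out, took the most reads in CDK12-2 AK39, CDK12-6 AK39 and luciferase AK41, at 1801, 1804 and 1903 of each 1000000. Without these 3 libraries the log2 change was 0.55 for TAP1 (adjusted p = 0.00412) and 0.49 for B2M (adjusted p = 0.0291).

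The order of levels per kilobase was nearly the same in both conditions. HLA-E was highest, and its range was separate from that of HLA-B, the next. The ranges of HLA-B and HLA-C overlapped in each condition, as did those of HLA-C and the TAP2 row ENSG00000250264. In the CDK12 siRNA libraries the TAP2 rows and TAPBP overlapped in a middle band, and in the luciferase libraries TAPBP, at 8.54 RPKM, lay below both TAP2 rows. TAP1 and B2M overlapped in each condition, HLA-F was next, and NLRC5 was lowest. B2M at 3.38 ± 0.619 RPKM with luciferase siRNA ranked 9684 of 57773 genes, where HLA-E ranked 1284 and HLA-B 2004, so the light chain was listed below HLA-B, HLA-C and HLA-E, the heavy chains it binds, and above HLA-F. No label or header accounts for this level, so what the B2M row holds, and with it the meaning of its call, is uncertain.

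Ratios within a library, chosen after the values were seen, describe how the balance of partners differed. TAP1 over TAP2 (ENSG00000204267) was 0.526 to 0.606 in the CDK12 siRNA libraries and 0.293 to 0.329 in the luciferase libraries. These ranges are separate, and the libraries of a group lie close together. TAPBP over the same TAP2 row was 0.904 to 1.27 with CDK12 siRNA and 0.555 to 0.782 with luciferase siRNA, also separate, although TAPBP alone overlapped. B2M over HLA-B was 0.161 to 0.289 with CDK12 siRNA and 0.107 to 0.176 with luciferase siRNA, which overlap. HLA-C over HLA-B was 0.876 to 0.988 with CDK12 siRNA and 0.853 to 1.06 with luciferase siRNA, with no separation.

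**Figure D3:**
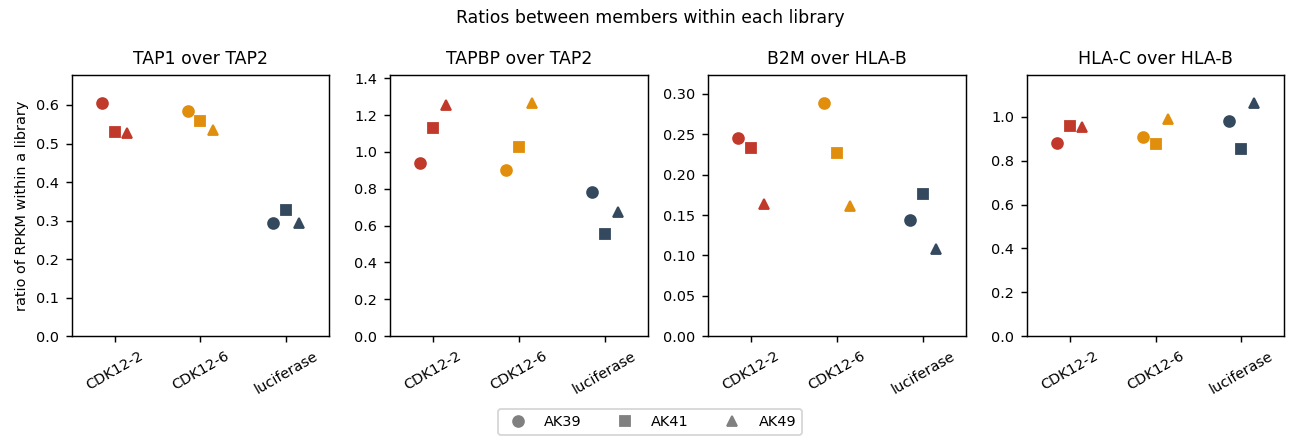
Ratio of RPKM between pairs of genes within each library (vertical axes, from 0), with CDK12-2, CDK12-6 and luciferase siRNA from left to right and symbols for the AK number. TAP1 and TAPBP over TAP2 separate the CDK12 siRNA libraries from the luciferase libraries, while B2M over HLA-B and HLA-C over HLA-B overlap.

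The other genes of the pathway were described from lists, with log2 changes for the mean of both siRNAs and, for each list, its median beside the median of -0.04 over all tested genes. Every count called in a list stands beside 33% of all tested genes called, 13.3% higher and 19.7% lower. Whether a list differs from these shares was not tested. Among immunoproteasome genes, which interferon-gamma raises to cut peptides suited to class I, 3 of 5 tested genes rose and 1 fell (median 0.25). PSMB8, a catalytic subunit whose gene lies next to TAP1, averaged 5.32 ± 0.357 RPKM with CDK12 siRNA and 2.12 ± 0.264 RPKM with luciferase siRNA. Its log2 change of 1.02 ± 0.081 (limma, adjusted p = 2.91e-05) was above that of every class I gene tested and was called in all 22 alternative settings. PSMB9, the catalytic subunit whose span covers TAP1, was under 1 RPKM and outside the fit. It was at 0.708 to 0.926 RPKM with CDK12 siRNA and 0.234 to 0.274 RPKM with luciferase siRNA (exact permutation test, unadjusted p = 0.0238). That is the smallest p-value this design allows, and every gene without overlap between these groups gets it. Of the genes in the fit, 34.2% had no overlap, 14.3% higher. PSMB10, the remaining catalytic subunit of the immunoproteasome, fell: it averaged 4.36 ± 0.141 RPKM with CDK12 siRNA and 6.69 ± 0.519 RPKM with luciferase siRNA (log2 change -0.52 ± 0.0681, adjusted p = 0.000433). The proteasome activator subunits PSME2 (0.25, adjusted p = 0.0128) and PSME1 (0.26, adjusted p = 0.0451) rose by less. The PSME2 call was lost without luciferase AK39 (0.0512) or luciferase AK49 (0.0696), and that of PSME1 without any single luciferase library (0.0657 to 0.155) and without the AK41 or AK49 library of either CDK12 siRNA (0.0676 to 0.0983).

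The constitutive catalytic subunits PSMB5, PSMB6 and PSMB7, which the immunoproteasome subunits replace, had 0 of 3 called at changes of -0.08 to 0.03. PSMB8 over PSMB5, which PSMB8 replaces, was 0.0479 to 0.0615 in the CDK12 siRNA libraries and 0.0188 to 0.0244 in the luciferase libraries, so PSMB5 stayed far more abundant per kilobase in both.

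The peptide loading and trimming list, with the chaperones calreticulin, calnexin and PDIA3, had 0 of 7 tested genes called (median -0.13). CALR, calreticulin, averaged 147.4 ± 25.8 RPKM with CDK12 siRNA and 198.8 ± 28.3 RPKM with luciferase siRNA (adjusted p = 0.0588), and TAPBPL, the tapasin-related editor TAPBPR, averaged 2.32 ± 0.300 RPKM with CDK12 siRNA and 1.78 ± 0.256 RPKM with luciferase siRNA (adjusted p = 0.066). Of 7 tested peptidases outside the endoplasmic reticulum, most of them cytosolic, 0 rose and 3 fell (median -0.25). These were LNPEP, an aminopeptidase of endosomes used in cross-presentation (-0.43 ± 0.0787, adjusted p = 0.00289), LAP3, leucine aminopeptidase (-0.34 ± 0.0651, adjusted p = 0.00329), and NRD1, nardilysin (-0.25 ± 0.0762, adjusted p = 0.0333). The NRD1 call held in 12 of 22 alternative settings and was lost without any single luciferase library (0.0768 to 0.121), without CDK12-2 AK41 (0.0637) and without CDK12-6 AK39 (0.0727) or AK41 (0.0559).

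**Figure D4:**
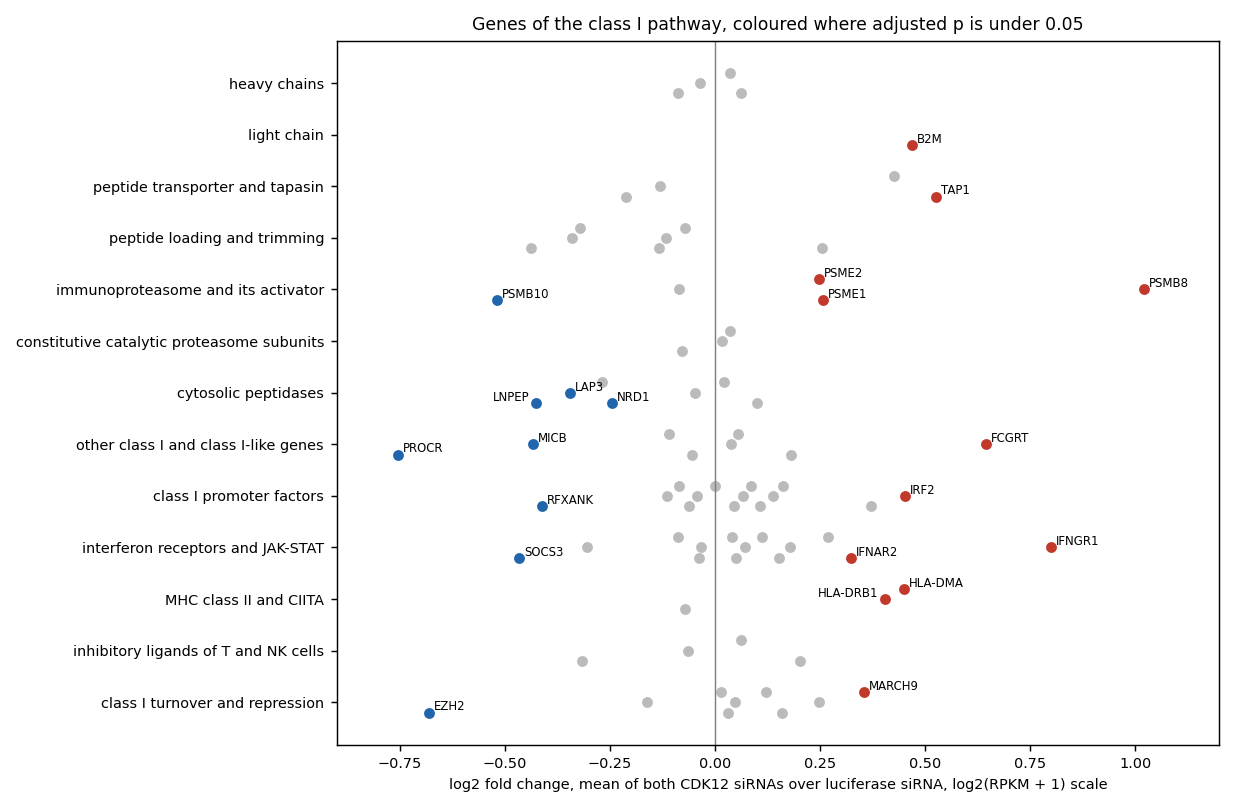
Mean change of both CDK12 siRNAs over luciferase siRNA (horizontal axis, log2 fold change on the log2(RPKM + 1) scale) of every tested gene in each list (rows); genes at an adjusted p under 0.05 are named, red where higher and blue where lower. PSMB8 at 1.02 is the farthest to the right and PROCR at -0.75 the farthest to the left.

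Among other class I-like genes, 1 of 8 tested rose and 2 fell (median -0.01). FCGRT, the heavy chain of the neonatal Fc receptor and also a partner of B2M, averaged 1.35 ± 0.205 RPKM with CDK12 siRNA and 0.498 ± 0.0326 RPKM with luciferase siRNA (0.64 ± 0.0765, adjusted p = 0.000254), and it entered the test only through the libraries in which it was high. PROCR, the endothelial protein C receptor, which has a class I-like fold, averaged 10.8 ± 0.999 RPKM with CDK12 siRNA and 19.0 ± 2.44 RPKM with luciferase siRNA (adjusted p = 0.000372). MICB, a stress-induced ligand of the NK receptor NKG2D, averaged 12.02 ± 1.66 RPKM with CDK12 siRNA and 16.5 ± 2.11 RPKM with luciferase siRNA (adjusted p = 0.0232, lost in 6 of 22 alternative settings, among them without CDK12-2 AK41, at 0.0505, without luciferase AK39, at 0.0944, and without luciferase AK49, at 0.107). MICA, its close relative, was not called (adjusted p = 0.701).

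Factors that act on class I promoters had 1 of 14 tested genes higher and 1 lower (median 0.06). IRF2, which binds IRF sites, averaged 2.17 ± 0.260 RPKM with CDK12 siRNA and 1.31 ± 0.0677 RPKM with luciferase siRNA (0.45 ± 0.0828, adjusted p = 0.00277). RFXANK, a subunit of the RFX complex with which NLRC5 acts, fell: it averaged 8.29 ± 0.943 RPKM with CDK12 siRNA and 11.4 ± 1.596 RPKM with luciferase siRNA (adjusted p = 0.0186, 0.0986 without luciferase AK39 and 0.0783 without luciferase AK49). The NF-kappaB subunits RELA and NFKB1 were not called (adjusted p = 0.883 and 0.779).

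Interferon receptors and JAK-STAT genes had 2 of 14 tested genes higher and 1 lower (median 0.06), beside 13.3% higher and 19.7% lower over all tested genes. IFNGR1, the ligand-binding chain of the interferon-gamma receptor, averaged 8.28 ± 0.465 RPKM with CDK12 siRNA and 4.33 ± 0.220 RPKM with luciferase siRNA (0.80 ± 0.0707, adjusted p = 5.01e-05), a call made in all 22 alternative settings. IFNAR2, a chain of the type I interferon receptor, rose by 0.32 ± 0.0785 (adjusted p = 0.0115, 0.0516 without luciferase AK39). SOCS3, an inhibitor of JAK-STAT signalling, fell: it averaged 2.58 ± 0.335 RPKM with CDK12 siRNA and 3.93 ± 0.194 RPKM with luciferase siRNA (adjusted p = 0.00316).

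Of the genes of class II presentation, the route for peptides from outside the cell, 3 of 13 were tested and 2 of these rose. HLA-DRB1, a class II beta chain, averaged 12.8 ± 1.45 RPKM with CDK12 siRNA and 9.43 ± 1.25 RPKM with luciferase siRNA (adjusted p = 0.0208, 0.0828 without luciferase AK41), and it may share reads with its near-identical relatives. HLA-DMA, part of the class II peptide editor, averaged 2.07 ± 0.255 RPKM with CDK12 siRNA and 1.25 ± 0.167 RPKM with luciferase siRNA (adjusted p = 0.00357). HLA-DRA, the partner without which HLA-DRB1 forms no surface molecule, was at 0.0278 to 0.0819 RPKM with CDK12 siRNA and at 0.328 RPKM in luciferase AK39, 0.0630 in luciferase AK41 and 0 in luciferase AK49.

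Inhibitory ligands of T and NK cells had 0 of 4 tested genes called. Of 9 tested genes that turn over or repress class I, MARCH9, a ubiquitin ligase of surface class I, rose by 0.35 ± 0.0977 (adjusted p = 0.0204), a call lost without luciferase AK41 (0.0678) or luciferase AK49 (0.0732). EZH2, the methyltransferase of Polycomb complex PRC2, which can silence class I genes, averaged 17.5 ± 1.197 RPKM with CDK12 siRNA and 28.6 ± 1.48 RPKM with luciferase siRNA (-0.68 ± 0.0792, adjusted p = 0.000224). With AK41 left out of all groups, the calls of IRF2, LAP3, HLA-DMA and SOCS3 were also lost (0.065 to 0.0903). The partners of EZH2 in PRC2, EED and SUZ12, were not called (adjusted p = 0.122 and 0.914).

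**Figure D5:**
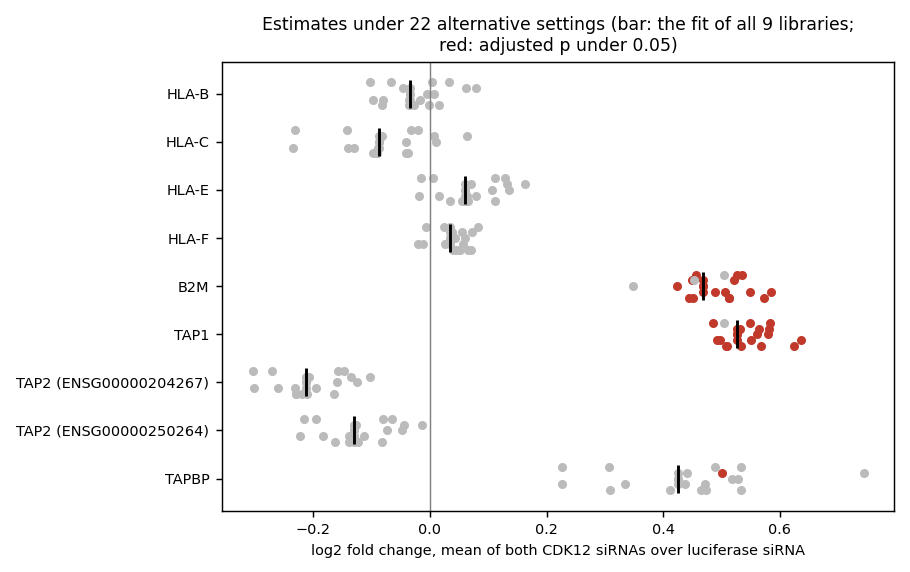
Change with both CDK12 siRNAs over luciferase siRNA (horizontal axis, log2 fold change) of each tested row under the 22 alternative settings, red where the adjusted p was under 0.05; the bar is the estimate from all 9 libraries. TAP1 ranged from 0.49 to 0.64 and B2M from 0.348 to 0.585, and the points of the 4 heavy chains lie on both sides of 0.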

How the data were processed

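Polyadenylated RNA of 9 OVCAR-8 libraries was sequenced; the kit, per the labels' protocols, was TruSeq mRNA v2. The authors deposited RPKM values for 57773 genes with hg19 coordinates, plus, per the file headers, log2 fold changes of 1 comparison with a false discovery rate, which is a kind of adjusted p-value. TopHat2, featureCounts and edgeR appear in the submitters' processing notes, without settings. Whole reads were recovered from RPKM times gene length plus 1 base (100% of values within 0.001), which gave depths and read counts. At 1 RPKM a gene rests on many reads, and the spread between libraries sets the precision.

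The 15208 genes that reached 1 RPKM in 3 or more libraries were tested with limma 3.58.1 in R 4.3.3 (eBayes with a trend) on log2(RPKM + 1), with 3 groups in 1 fit and Benjamini-Hochberg adjustment over all tested genes. The script was tested on simulated data. NLRC5 and PSMB9, outside this filter, got a two-sided exact permutation test over libraries. Every class I gene is named, with up to 3 genes higher and 3 lower per list by adjusted p; other genes, and the ratios, were picked with the values in view. The genes and lists were chosen with earlier results of these data known. NRDC, NECTIN2, SUSD6 and PECAM1 have no row under these names; NRD1 and PVRL2 are older symbols of the first 2. Promoters are RefSeq's for GRCh38.p14, used for sequence only.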

Additional observations from a re-analysis of the deposited data

How the results depend on the processing

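Each comparison had 22 to 24 alternative settings. For the mean of both siRNAs the count of 2 calls was within 1.5 times in 19 of 22 settings, with 3 under quantile normalization; it was 1 with AK39 left out of all groups and 0 with AK41 left out, and 1 to 2 when each library was left out in turn. For CDK12-2 the 2 calls became 1 with no filter on low values, with at least 1 RPKM in all 9 libraries, with quantile normalization, scaling to listed reads or a trimmed mean of log ratios, without AK39, and without the 3 libraries richest in RNA without a poly(A) tail; without AK41 it was 0, and 1 to 2 over single libraries. For CDK12-6 it became 1 with no filter, quantile normalization, a trimmed mean, only the groups compared in the fit, without AK39, and without those 3 libraries, 0 without AK41, and 1 to 2 over single libraries. Between the siRNAs it was 0 in all 24. Counts over all genes ran from 1805 to 6626, 902 to 5559, 953 to 5645 and 0 to 2. The trimmed mean and limma precision weights on recovered reads were added after the data were seen, in place of edgeR's TMM factors, edgeR and DESeq2, which were not run because the deposited unit is RPKM. The cause of these shifts was not tested, though leaving out libraries also leaves fewer samples.

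Pairing by AK number was examined through deviations from the group means. Their correlation was -0.563 (AK39), -0.125 (AK41) and 0.648 (AK49) between CDK12-2 and luciferase, -0.51, 0.466 and 0.755 between CDK12-6 and luciferase, and 0.764, 0.13 and 0.809 between CDK12-2 and CDK12-6. The numbers were therefore taken as pairs between the CDK12 siRNAs, although AK41 hardly deviated together there. They were not taken as pairs with luciferase, although AK49 deviated together there. Differently numbered libraries gave -0.792 to 0.309 between the CDK12 siRNAs. With luciferase AK41, however, CDK12-2 AK39 gave 0.743 and CDK12-6 AK39 gave 0.798, so pairs by AK number are not established. These libraries held the most non-polyadenylated RNA of their groups, and its part in the deviations was not tested. With the AK number as a replicate block, 2 rows were called for the mean and for each siRNA, and 0 between siRNAs; over all genes the count for the mean was 6241, against 5024 without the block.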

Other observations

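Several genes of the pathway were too low for the fit across genes and are given as values only. ERAP2, an aminopeptidase that trims peptides in the endoplasmic reticulum, was at 0.160 to 0.211 RPKM with CDK12 siRNA and 0.0660 to 0.0967 RPKM with luciferase siRNA. CD274, which encodes the inhibitory ligand PD-L1, was at 0.336 to 0.454 RPKM with CDK12 siRNA and 0.136 to 0.237 RPKM with luciferase siRNA. MR1, which presents vitamin metabolites to MAIT cells and pairs with B2M, was at 0.206 to 0.310 RPKM with CDK12 siRNA and 0.109 to 0.138 RPKM with luciferase siRNA. IRF1, the factor that follows interferon-gamma at class I promoters, was at 0.820 to 1.26 RPKM with CDK12 siRNA and 0.586 to 0.801 RPKM with luciferase siRNA. SOCS1, which like SOCS3 inhibits JAK-STAT signalling, was at 0.528 to 0.815 RPKM with CDK12 siRNA and 0.343 to 0.390 RPKM with luciferase siRNA. In all 5 the groups did not overlap, and these genes were picked for that. Of the genes in the fit, 34.2% had no overlap, 14.3% higher with CDK12 siRNA. That share does not cover genes this low, and low list genes that overlapped or fell were not counted.

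The genes whose log2(RPKM + 1) was most like that of a class I gene over the 9 libraries were CTSF and VASN for TAP1, CREBRF and NSMCE2 for B2M, and NFIX and FOSL1 for TAPBP, at a Pearson r of 0.983 to 0.998. For HLA-B they were DCAF12L1 and AKAP8, for HLA-C CHST14 and RBM10, for HLA-E a pair of genes listed under clone names only, and for HLA-F DOK1 and AC118278.1. For TAP2 they were ATP9A and GANAB (ENSG00000204267), and MIR939 and POLG (ENSG00000250264). With 9 libraries that share 3 controls and 15208 genes searched, values this high are a description of these libraries only.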
